A study of Homo sapiens with 16 samples.

Results

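The genes described here encode 10 surface proteins of myeloma cells that antibodies, antibody-drug conjugates, bispecific antibodies or engineered T cells have been directed at: TNFRSF17, TNFRSF13B, CD38, SLAMF7, SDC1, GPRC5D, CD46, ICAM1, CD70 and CD40. They were taken by name, as every probe whose gene name on the array equalled a member, which gave 11 probes for 10 of the 32073 gene symbols on the array. CD40 had 2 probes and the other 9 genes had 1 each, and the brighter CD40 probe stands for that gene. Both RPMI-8226 and MM.1S are long-established lines grown from human multiple myeloma. Each line was given the solvent DMSO, GSK126 (an inhibitor of the H3K27 methyltransferase EZH2), UNC0638 (an inhibitor of the H3K9 methyltransferase G9a) or GSK126 + UNC0638, at 1 µM each for 6 days. Every one of the 8 groups had 2 biological replicates, and with 1 array for each RNA sample and a single dye there were 16 arrays. The labels give no engineered allele for any group, and the cells given both inhibitors are called the combination below.

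Plasma cells and the myeloma cells derived from them keep a characteristic set of surface proteins. TNFRSF17 (BCMA) and TNFRSF13B (TACI) are receptors for the survival ligands APRIL and BAFF, and gamma-secretase sheds BCMA from the membrane. SLAMF7 is a self-binding receptor of the SLAM family, CD38 is an ectoenzyme that consumes NAD, and SDC1 (CD138) is a heparan sulfate proteoglycan used to recognise plasma cells. GPRC5D is an orphan G protein-coupled receptor, CD46 restrains complement, and ICAM1 is the ligand of leukocyte integrins. CD40 is a TNF receptor family member through which T cells signal to B cells, and CD70 is the ligand of CD27. The arrays measured mRNA, so the amount of protein at the cell surface was not measured.

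Each value below is a log2 level, the log2 intensity of a probe minus the 75th percentile of its array, so that 0 is the 75th percentile and 1 unit is a 2-fold difference in intensity. Levels can be compared between arrays for 1 gene but not between genes, because probes differ in brightness. The 75th percentile lay between 253.6 and 347.4 intensity units on the RPMI-8226 arrays and between 429.6 and 475.8 on the MM.1S arrays, and 46.5% to 52.9% of spots were well above background, depending on the array. Of the members, 9 were well above background on all 16 arrays. CD40 was well above background on the MM.1S arrays and on no RPMI-8226 array. Each line had a slide and a scan of its own, and the effects of line and slide cannot be told apart. The plasma cell marker list (PRDM1, XBP1, IRF4, IGJ, MZB1 and POU2AF1) was well above background on both DMSO arrays for 6 of 6 genes measured in both lines. In bulk RNA, fewer cells of a type and less RNA per cell cannot be told apart.

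The probes behind the changes described below are printed first, because each value is the brightness of that stretch alone and not of the whole transcript. For SLAMF7, TNFRSF17 and ICAM1 the first 30 bases of the 60-base probe are given, and for the others all 60. Positions are those of the array annotation on GRCh37, and the exon or untranslated region that each probe lies in was not analysed here. The probes lie on chr1:160724402-160724461 (plus strand, SLAMF7), chr16:12061768-12061827 (plus, TNFRSF17), chr19:10396298-10396358 (plus, ICAM1), chr12:13102672-13102731 (minus, GPRC5D), chr17:16852071-16852130 (minus, TNFRSF13B), chr20:44757581-44757640 (plus, CD40) and chr20:44755280-44755339 (plus, the dimmer CD40 probe).
SLAMF7: ggagacctccctaccaagtgatgaaagtgt
TNFRSF17: gatctctttaggatgactgtatttttcagt
ICAM1: gaaatactgaaacttgctgcctattgggta
GPRC5D: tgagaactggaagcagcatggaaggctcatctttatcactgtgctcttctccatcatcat
TNFRSF13B: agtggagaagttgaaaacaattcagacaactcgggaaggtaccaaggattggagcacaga
CD40, brighter probe: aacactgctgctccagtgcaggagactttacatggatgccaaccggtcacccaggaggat
CD40, dimmer probe: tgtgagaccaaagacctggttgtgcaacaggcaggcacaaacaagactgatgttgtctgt

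With the combination, SLAMF7 rose 29.5-fold in RPMI-8226 cells and fell 1.78-fold in MM.1S cells. The RPMI-8226 change was 4.88 on the log2 scale, and 3.70 to 5.43 under other processing or with 1 array left out. TNFRSF17 (BCMA) fell in both lines, 5.92-fold in RPMI-8226 and 1.48-fold in MM.1S, and SDC1 (CD138) fell in both, 1.80-fold and 1.47-fold. ICAM1 fell 1.75-fold in RPMI-8226 and rose 2.07-fold in MM.1S. In MM.1S cells GPRC5D fell 3.82-fold, TNFRSF13B (TACI) 2.40-fold, CD38 1.71-fold and CD46 1.28-fold, whereas CD40 rose 7.47-fold and CD70 1.56-fold. Each of these changes passed the test at an adjusted p under 0.05 (limma over the 8 arrays of the line, Benjamini-Hochberg adjusted over all probes kept), which is what called means below. In RPMI-8226 CD38 was 2.38-fold and CD46 1.49-fold lower with the combination. Neither change was called by the test just named, and both were called when same-numbered arrays were paired by a replicate block.

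**Figure D1:**
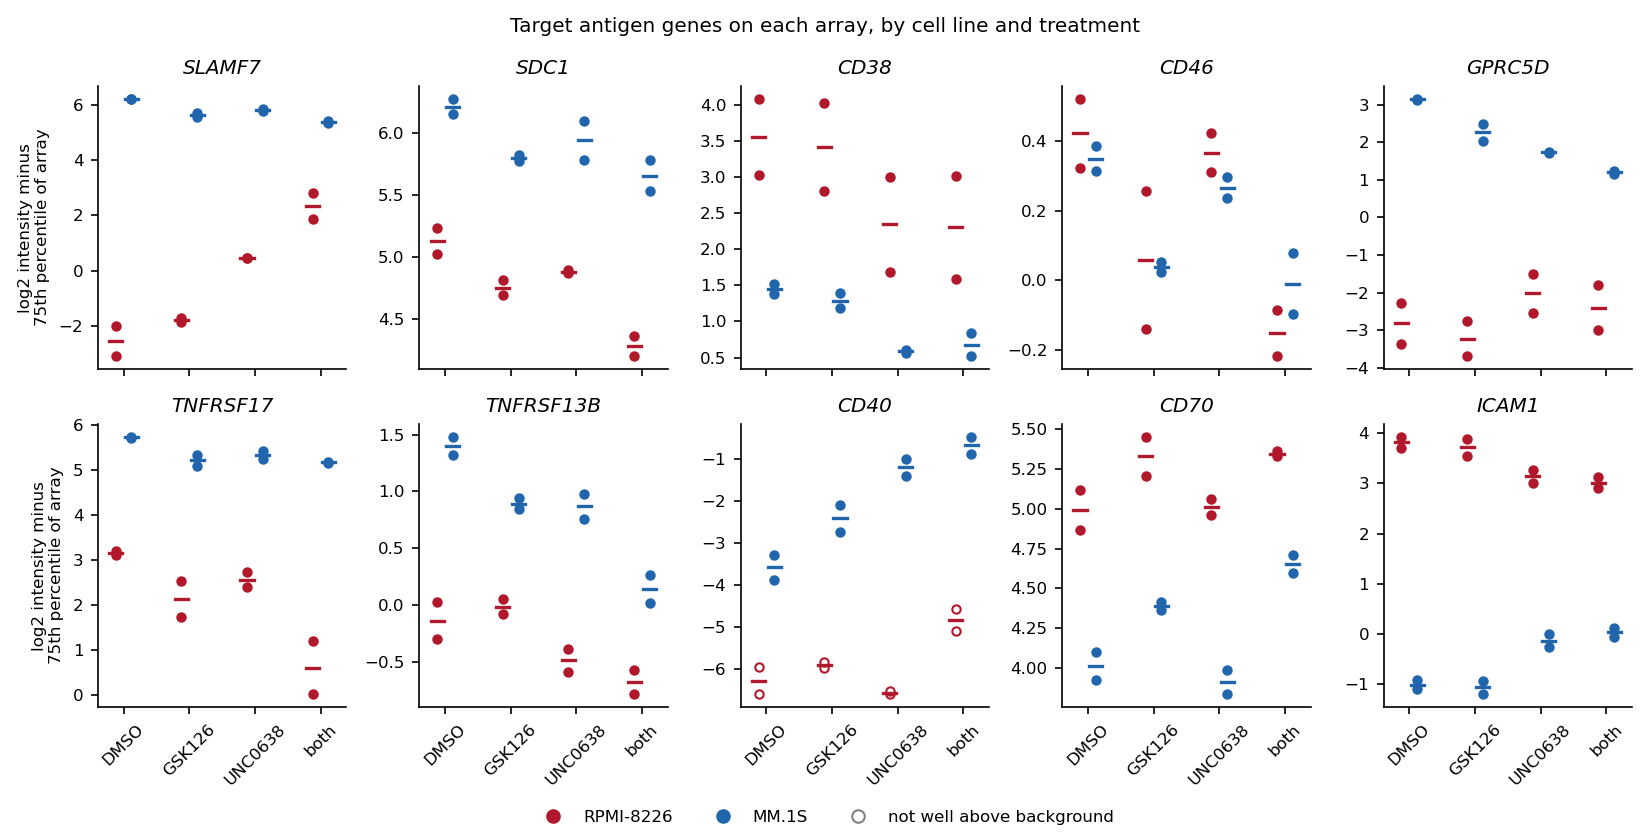
Each panel plots 1 gene, with the treatment on the horizontal axis and log2 intensity relative to the array's 75th percentile on the vertical axis. Points are single arrays, short bars are the mean of 2 arrays, and open points mark arrays on which the probe was not well above background; SLAMF7 climbs from -3.09 and -1.99 to 2.83 and 1.86 in RPMI-8226 while it stays between 5.35 and 6.21 in MM.1S.

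SLAMF7, the receptor bound by elotuzumab, had the widest span of levels. In RPMI-8226 cells its log2 level was -3.09 and -1.99 on the DMSO arrays, -1.71 and -1.86 with GSK126, 0.47 and 0.48 with UNC0638, and 2.83 and 1.86 with the combination. In MM.1S cells it was 6.20 and 6.21 with DMSO, 5.56 and 5.71 with GSK126, 5.84 and 5.77 with UNC0638, and 5.35 and 5.40 with the combination. The order from low to high was DMSO, GSK126, UNC0638 and combination in RPMI-8226, and combination, GSK126, UNC0638 and DMSO in MM.1S, and no neighbouring groups overlapped in either order. Even the highest RPMI-8226 array was below the lowest MM.1S array. In RPMI-8226 the change was 3.01 on the log2 scale with UNC0638 (95% interval 2.0 to 4.03, adjusted p = 0.0452) and 4.88 with the combination (3.87 to 5.90, adjusted p = 0.00148). With GSK126 it was 0.75 (-0.26 to 1.77, adjusted p = 0.580), which was not called. In MM.1S the changes were -0.57 with GSK126 (adjusted p = 0.0205), -0.41 with UNC0638 (adjusted p = 0.0186) and -0.84 with the combination (adjusted p = 0.000725).

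CD38, the target of daratumumab and isatuximab, differed between replicate arrays of RPMI-8226 by about as much as between treatments. Its log2 level there was 3.02 and 4.08 with DMSO, 2.81 and 4.02 with GSK126, 1.69 and 3.0 with UNC0638, and 1.59 and 3.02 with the combination. Replicate 2 was the higher array in 4 of 4 groups, by 1.05 to 1.43. The combination change of -1.25 (95% interval -2.93 to 0.43) had an adjusted p of 0.265. The same-numbered RPMI-8226 arrays deviated together across all probes, and with the replicate number as a block the CD38 change was called both with UNC0638 (-1.21, adjusted p = 0.0199) and with the combination (-1.25, adjusted p = 0.00369). In MM.1S cells the level was 1.52 and 1.38 with DMSO, 1.40 and 1.19 with GSK126, 0.61 and 0.57 with UNC0638, and 0.52 and 0.84 with the combination. The DMSO and GSK126 arrays overlapped, and the UNC0638 and combination arrays lay below both and overlapped each other. CD38 was lower in MM.1S by 0.86 with UNC0638 (adjusted p = 0.00851) and by 0.77 with the combination (adjusted p = 0.00487), whereas the change with GSK126 was -0.16 (-0.50 to 0.18, adjusted p = 0.492).

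SDC1, the surface proteoglycan CD138, stayed bright on every array. In RPMI-8226 its log2 level was 5.23 and 5.02 with DMSO, 4.81 and 4.69 with GSK126, 4.90 and 4.87 with UNC0638, and 4.20 and 4.36 with the combination, with no overlap between any of these groups. In MM.1S it was 6.28 and 6.15 with DMSO, 5.78 and 5.82 with GSK126, 6.10 and 5.79 with UNC0638, and 5.78 and 5.53 with the combination. There the DMSO arrays were the highest, and the GSK126 arrays overlapped both other treated groups. The combination change was -0.85 in RPMI-8226 (95% interval -1.20 to -0.50, adjusted p = 0.0165) and -0.56 in MM.1S (-0.90 to -0.21, adjusted p = 0.0173). Neither inhibitor alone gave a called change in either line.

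CD46, a cofactor that inactivates complement on host cells, had the smallest combination change of the members in MM.1S. Its log2 level in RPMI-8226 was 0.32 and 0.52 with DMSO, -0.14 and 0.26 with GSK126, 0.31 and 0.42 with UNC0638, and -0.22 and -0.08 with the combination. In MM.1S it was 0.31 and 0.39 with DMSO, 0.05 and 0.02 with GSK126, 0.24 and 0.30 with UNC0638, and -0.10 and 0.08 with the combination. The DMSO arrays of both lines overlapped, and the combination arrays of each line lay below its DMSO arrays. The change with the combination was -0.36 in MM.1S (95% interval -0.58 to -0.14, adjusted p = 0.0175). In RPMI-8226 it was -0.57 (-1.0 to -0.15, adjusted p = 0.0826), and with the replicate block it was called (adjusted p = 0.0341).

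GPRC5D, the orphan receptor bound by talquetamab, was dim in RPMI-8226 cells and bright in MM.1S cells. In RPMI-8226 its log2 level was -3.36 and -2.26 with DMSO, -3.69 and -2.75 with GSK126, -2.53 and -1.50 with UNC0638, and -3.0 and -1.78 with the combination. All treated groups overlapped the DMSO arrays, and replicate 2 was the higher array in 4 of 4 groups by 0.94 to 1.22. Between arrays of the same number, GPRC5D was higher than with DMSO by 0.83 and 0.77 with UNC0638 and by 0.36 and 0.48 with the combination, and with the replicate block neither change was called (adjusted p = 0.0521 and 0.0721). In MM.1S its log2 level was 3.12 and 3.15 with DMSO, 2.04 and 2.48 with GSK126, 1.75 and 1.71 with UNC0638, and 1.24 and 1.17 with the combination. Here no groups overlapped, and the levels fell in the order DMSO, GSK126, UNC0638, combination. The changes in MM.1S were -0.88 with GSK126 (adjusted p = 0.0271), -1.41 with UNC0638 (adjusted p = 0.00295) and -1.93 with the combination (95% interval -2.29 to -1.57, adjusted p = 0.000347). In RPMI-8226 the combination change was 0.42 (-1.03 to 1.87, adjusted p = 0.664).

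TNFRSF17, which encodes BCMA, was lower in treated cells of both lines. In RPMI-8226 its log2 level was 3.21 and 3.12 with DMSO, 1.73 and 2.53 with GSK126, 2.40 and 2.73 with UNC0638, and 0.01 and 1.20 with the combination. The DMSO arrays were above all others and the combination arrays below all others, although the combination replicates were 1.19 apart. In MM.1S it was 5.73 and 5.75 with DMSO, 5.10 and 5.34 with GSK126, 5.42 and 5.24 with UNC0638, and 5.16 and 5.19 with the combination. All 6 treated MM.1S arrays lay below the DMSO arrays, and the GSK126 arrays spanned the combination arrays. The combination change was -2.56 in RPMI-8226 (95% interval -3.58 to -1.55, adjusted p = 0.0144) and -0.56 in MM.1S (-0.83 to -0.29, adjusted p = 0.00732). In MM.1S the single inhibitors gave changes of -0.52 with GSK126 (adjusted p = 0.0490) and -0.40 with UNC0638 (adjusted p = 0.0418). In RPMI-8226 they gave -1.03 (adjusted p = 0.455) and -0.60 (adjusted p = 0.756), which were not called.

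TNFRSF13B, which encodes TACI, fell in MM.1S cells. Its log2 level there was 1.33 and 1.48 with DMSO, 0.84 and 0.94 with GSK126, 0.98 and 0.76 with UNC0638, and 0.27 and 0.02 with the combination. The DMSO arrays were the highest, the single-inhibitor groups overlapped each other, and the combination arrays were the lowest. In RPMI-8226 it was -0.30 and 0.03 with DMSO, 0.05 and -0.08 with GSK126, -0.59 and -0.39 with UNC0638, and -0.79 and -0.57 with the combination. The changes in MM.1S were -0.53 with UNC0638 (adjusted p = 0.0283) and -1.26 with the combination (95% interval -1.58 to -0.94, adjusted p = 0.000726). The RPMI-8226 combination arrays lay below the DMSO arrays and overlapped those of UNC0638. Their change of -0.54 (-0.96 to -0.12) had an adjusted p of 0.0912 and was not called.

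The ligands of these receptors and the protease that sheds BCMA were read alongside. In RPMI-8226 cells TNFSF13B (BAFF) was not well above background with DMSO and was at least 1.51-fold higher with the combination, and TNFSF13 (APRIL) changed by -0.09 (adjusted p = 0.753). In MM.1S cells TNFSF13 rose by 0.87 on the log2 scale (adjusted p = 0.00456), while TNFSF13B changed by 0.22 (adjusted p = 0.570). TNFRSF13C, the BAFF receptor, changed by -0.40 in RPMI-8226 (adjusted p = 0.464) and was not tested in MM.1S because it was too dim. A gene that is dim with DMSO is tested only where a treated group lifts it, so lists are counted over the genes well above background on both DMSO arrays, and dimmer genes are named apart. Of 4 such gamma-secretase subunit genes in RPMI-8226 0 were called (median change -0.12), and of 5 in MM.1S 2 rose and 1 fell (0.15). APH1B, a subunit of the complex, rose by 2.50 in MM.1S (adjusted p = 0.000168) and by 2.32 in RPMI-8226, where 1 of the 2 DMSO arrays was not well above background. In MM.1S the catalytic subunit gene PSEN2 rose by 0.40, and PSENEN fell by 0.28. With 2 arrays per group, these lists are described by counts alone. Over all genes tested, 8.06% rose and 5.03% fell with the combination in RPMI-8226, and 23.2% rose and 32.0% fell in MM.1S. These shares stand beside every list below. They also count genes that were tested only because a treated group lifted them, so they are not matched to the list counts.

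CD40, the receptor of the T cell ligand CD40L, was dim in MM.1S cells and rose with treatment. Its log2 level there was -3.88 and -3.28 with DMSO, -2.73 and -2.09 with GSK126, -1.40 and -1.0 with UNC0638, and -0.88 and -0.47 with the combination. No groups overlapped, and the levels rose in the order DMSO, GSK126, UNC0638, combination. The changes were 2.38 with UNC0638 (95% interval 1.63 to 3.13, adjusted p = 0.00509) and 2.90 with the combination (2.15 to 3.66, adjusted p = 0.000799). With GSK126 the change was 1.17 (0.42 to 1.92), and its adjusted p of 0.0754 was not under the threshold. The log2 level of the dimmer probe was -4.34 and -3.64 with DMSO and -1.63 and -1.33 with the combination. It gave the same order of groups, with changes of 2.02 with UNC0638 (adjusted p = 0.00592) and 2.51 with the combination (adjusted p = 0.000916). In RPMI-8226 cells neither probe was well above background on any array, and no change was tested. The brighter probe was at -6.61 and -5.95 with DMSO, -5.99 and -5.83 with GSK126, -6.61 and -6.54 with UNC0638, and -4.57 and -5.10 with the combination. Because the probe is dim, the fold depends on how background is removed. With normexp background correction the MM.1S changes were 1.36 with UNC0638 and 1.79 with the combination, and both were called.

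CD70, the ligand of CD27, was bright in both lines. Its log2 level in RPMI-8226 was 4.87 and 5.12 with DMSO, 5.21 and 5.45 with GSK126, 4.96 and 5.06 with UNC0638, and 5.36 and 5.33 with the combination. In MM.1S it was 4.10 and 3.93 with DMSO, 4.41 and 4.36 with GSK126, 3.99 and 3.83 with UNC0638, and 4.71 and 4.60 with the combination. In both lines the UNC0638 arrays overlapped the DMSO arrays, and the GSK126 and combination arrays lay above them. The combination change was 0.64 in MM.1S (95% interval 0.39 to 0.89, adjusted p = 0.00309). In RPMI-8226 it was 0.36 (-0.02 to 0.73, adjusted p = 0.177), which was not called. CD27, its receptor, was too dim to be tested in either line. A list of 13 costimulatory genes of the TNF superfamily and of the CD28 and B7 families had 6 genes well above background with DMSO in RPMI-8226, of which 1 rose (median change 0.69), and 5 in MM.1S, of which 2 rose (0.41), and 0 of these fell. TNFSF4 (OX40 ligand) rose by 2.54 in RPMI-8226 (adjusted p = 0.00729) and was at least 6.62-fold higher in MM.1S, where it was not well above background with DMSO. In MM.1S TNFSF9 (4-1BB ligand) rose by 1.16, the T cell costimulatory receptor CD28 rose by 0.58, and TNFSF14 (LIGHT), not well above background with DMSO, was at least 5.13-fold higher.

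ICAM1, the ligand of the integrin LFA-1, went in opposite directions. In RPMI-8226 its log2 level was 3.71 and 3.93 with DMSO, 3.56 and 3.89 with GSK126, 3.01 and 3.27 with UNC0638, and 2.91 and 3.13 with the combination. In MM.1S it was -1.11 and -0.93 with DMSO, -1.21 and -0.93 with GSK126, -0.27 and 0.00 with UNC0638, and -0.07 and 0.12 with the combination. In both lines GSK126 overlapped DMSO, and UNC0638 overlapped the combination, with the latter pair below the former in RPMI-8226 and above it in MM.1S. The combination change was -0.80 in RPMI-8226 (95% interval -1.25 to -0.35, adjusted p = 0.0409) and 1.05 in MM.1S (0.68 to 1.42, adjusted p = 0.00219). With UNC0638 alone it was -0.68 in RPMI-8226 (adjusted p = 0.272) and 0.88 in MM.1S (adjusted p = 0.0100). With GSK126 it was -0.10 (-0.55 to 0.35) in RPMI-8226 and -0.05 (-0.42 to 0.32) in MM.1S.

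Of the 11 genes of the ICAM family and the leukocyte integrins, 8 were well above background with DMSO in RPMI-8226, of which 1 rose and 2 fell (median change -0.34), and 7 in MM.1S, of which 4 rose and 1 fell (0.24). ICAM2 fell in both lines, by 1.11 (adjusted p = 0.0183) and by 0.64 (adjusted p = 0.00433). ITGAM, the alpha chain of the integrin Mac-1, was at least 11.3-fold higher in RPMI-8226, where it was not well above background with DMSO, and rose by 3.58 in MM.1S (adjusted p = 9.34e-05). ITGAX, another integrin alpha chain, was likewise not well above background with DMSO and was at least 4.21-fold higher in RPMI-8226. The LFA-1 alpha chain ITGAL rose by 0.45 in MM.1S (adjusted p = 0.00468) and changed by -0.10 in RPMI-8226 (adjusted p = 0.840). Its partner ITGB2 changed by -0.59 in RPMI-8226 (adjusted p = 0.251), where it was not well above background with the combination, and by -0.06 in MM.1S (adjusted p = 0.861). ITGB1, a beta chain of other integrins, rose by 1.06 and 0.77 in the 2 lines.

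**Figure D2:**
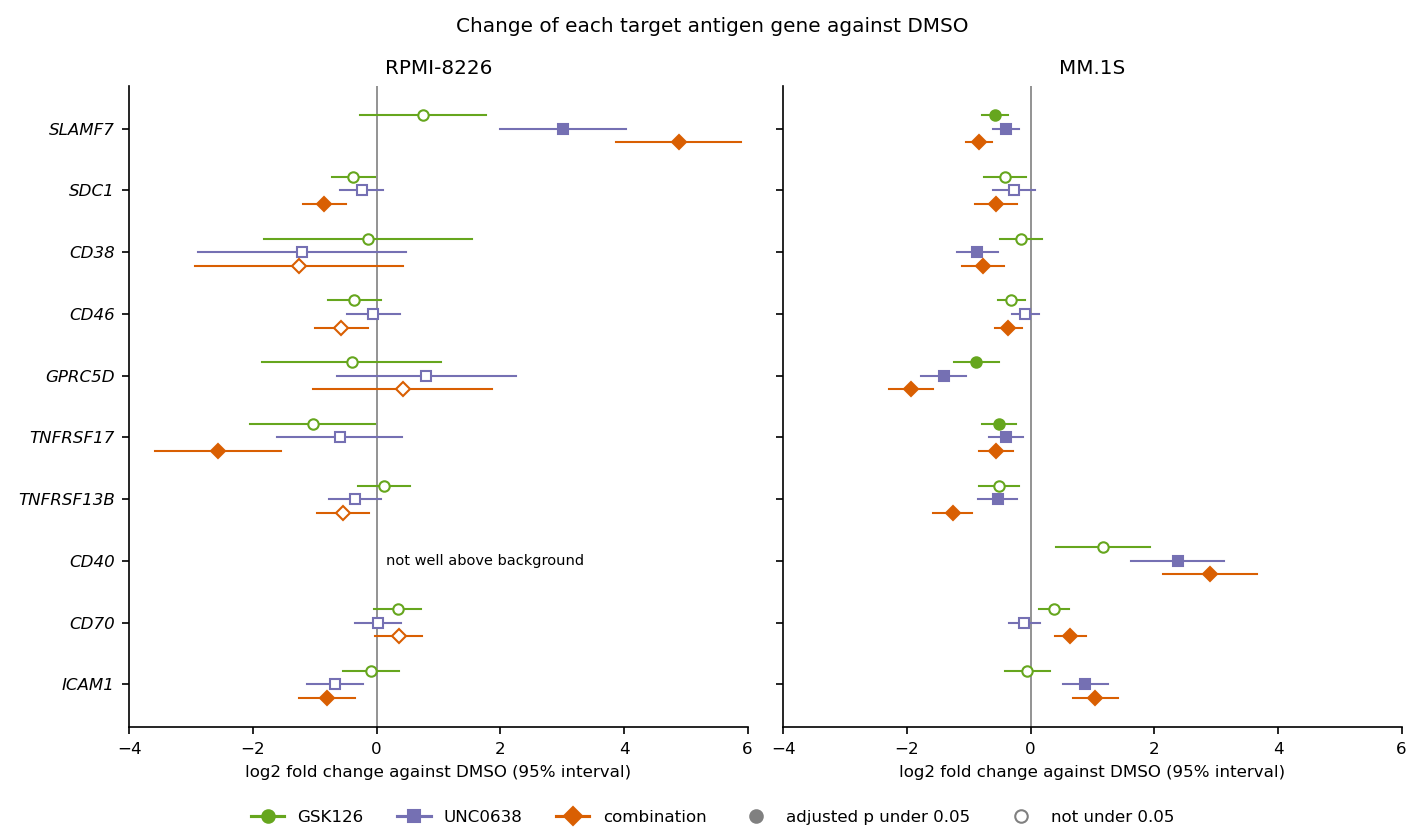
The horizontal axis is the fitted log2 fold change against DMSO, with 95% intervals as lines, for each gene and treatment in RPMI-8226 (left) and MM.1S (right). Filled symbols are called at an adjusted p under 0.05, and intervals are wider in RPMI-8226, as for CD38 with the combination (-2.93 to 0.43 against -1.11 to -0.43 in MM.1S).

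In RPMI-8226 cells 9 members could be tested. With GSK126 0 of 9 were called, against 0.599% of the 23193 probes tested, and by unadjusted p under 0.05 SDC1 and TNFRSF17 were lower. With UNC0638 1 of 9 was called (SLAMF7), against 0.638% of probes. With the combination 1 rose (SLAMF7), against 7.11% of probes, and 3 fell (TNFRSF17, SDC1 and ICAM1), against 5.46%. The median combination change was -0.57 over the 9 members and -0.14 over all probes tested. With the replicate number as a block, 8 changes against DMSO were called in place of 5, the additions being CD38 with UNC0638 and CD38 and CD46 with the combination. The block added calls over all probes too. With the combination 2414 probes were higher and 2495 lower, in place of 1650 and 1266. With UNC0638 299 were higher and 118 lower, in place of 129 and 19, and with GSK126 417 and 74, in place of 126 and 13. The UNC0638 call of SLAMF7 was lost when any 1 of the 8 arrays was left out (changes of 2.46 to 3.56). Among the combination calls, that of ICAM1 was lost without either DMSO, UNC0638 or combination array (-0.91 to -0.69), that of TNFRSF17 without either DMSO array or combination replicate 1 (-2.61 to -1.97, highest adjusted p = 0.0682), and that of SDC1 without replicate 1 of DMSO or of the combination (-0.77 to -0.74).

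In MM.1S cells all 10 members were tested, and more of them were called. With GSK126 3 of 10 were called, all lower (GPRC5D, SLAMF7 and TNFRSF17), against 7.48% of the 25096 probes tested. With UNC0638 7 of 10 were called, against 29.5% of probes, of which CD40 and ICAM1 rose and GPRC5D, CD38, TNFRSF13B, SLAMF7 and TNFRSF17 fell. With the combination 3 of 10 rose (CD40, ICAM1 and CD70), against 22.2% of probes, and 7 of 10 fell (GPRC5D, TNFRSF13B, SLAMF7, CD38, TNFRSF17, SDC1 and CD46), against 31.5%. The median combination change was -0.56 over the members and -0.12 over all probes. Several calls here were lost when 1 of the 8 arrays was left out. With the combination these were CD46 without either DMSO array or combination replicate 1 (-0.39 to -0.27) and SDC1 without DMSO replicate 1 or combination replicate 2 (-0.50 to -0.43). With UNC0638 they were CD38 (-0.84 to -0.79) and ICAM1 (0.75 to 0.79) without DMSO replicate 1 or UNC0638 replicate 2, SLAMF7 without any DMSO or UNC0638 array (-0.44 to -0.37), TNFRSF13B without any array but those of the combination (-0.64 to -0.42), and TNFRSF17 without any array but those of GSK126 (-0.49 to -0.31). With GSK126 they were GPRC5D without any array but GSK126 replicate 2 (-0.89 to -0.65), TNFRSF17 without any array (-0.64 to -0.39), and SLAMF7 without either DMSO array, GSK126 replicate 1 or UNC0638 replicate 2 (-0.58 to -0.50).

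Smaller MM.1S changes depended on the scaling. When the 75th percentile was taken over the probes well above background on all 16 arrays, combination changes of all probes moved up by 0.19, with 7420 probes higher and 5345 lower in place of 5565 and 7896, and CD46 (-0.17, adjusted p = 0.166) and SDC1 (-0.37, adjusted p = 0.0746) were not called. In RPMI-8226 the same scaling moved them up by 0.14, with 1921 probes higher and 640 lower in place of 1650 and 1266, and ICAM1 (-0.66, adjusted p = 0.0689) and the UNC0638 change of SLAMF7 (3.02, adjusted p = 0.0574) were not called. With quantile normalization the MM.1S combination changes of SDC1 (-0.10) and TNFRSF17 (-0.13) were not called, and that of SLAMF7 was -0.41 and stayed called (adjusted p = 0.00864). Under quantile normalization TNFRSF17 was also not called with UNC0638 (-0.11, adjusted p = 0.462) or GSK126 (-0.34, adjusted p = 0.118), nor SLAMF7 with UNC0638 (-0.13, adjusted p = 0.289). With the 75th percentile taken over probes well above background on all 16 arrays, TNFRSF17 with UNC0638 (-0.31) or GSK126 (-0.44) and TNFRSF13B with UNC0638 (-0.44, adjusted p = 0.0544) were not called. With 1 fit over all 16 arrays, the MM.1S combination calls of SLAMF7 (adjusted p = 0.0700), CD38 (adjusted p = 0.305), TNFRSF17 and CD46 were lost. So were the UNC0638 calls of CD38, GPRC5D, SLAMF7 and TNFRSF17, and the GSK126 calls of GPRC5D, SLAMF7 and TNFRSF17. GPRC5D, TNFRSF13B, CD40, CD70 and ICAM1 kept their combination calls in MM.1S, and SLAMF7 in RPMI-8226, under every alternative that was run.

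Adding the second inhibitor was compared directly. In RPMI-8226 SLAMF7 was higher with the combination than with GSK126, by 4.13 (95% interval 3.12 to 5.15, adjusted p = 0.00630), and it was the 1 member of 9 called, against 2.58% of probes. Against UNC0638 0 of 9 were called, against 3.38% of probes, and by unadjusted p the members under 0.05 were SLAMF7 (1.87, adjusted p = 0.0762), TNFRSF17 (-1.97, adjusted p = 0.0658), SDC1 and CD46. With the replicate block 6 such calls were made in place of 1. Over all probes the block gave 874 higher and 381 lower against GSK126, in place of 465 and 133. Against UNC0638 it gave 1174 and 376, in place of 628 and 156. The block added TNFRSF17 lower against GSK126 (-1.53, adjusted p = 0.0480) and against UNC0638 (-1.97, adjusted p = 0.0199), and CD38 (-1.11), ICAM1 (-0.71) and GPRC5D (0.83, higher) against GSK126.

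In MM.1S 5 of 10 members differed between the combination and GSK126, against 36.8% of probes. ICAM1 (1.10) and CD40 (1.73) were higher with the combination, and GPRC5D (-1.06), TNFRSF13B (-0.75) and CD38 (-0.61) were lower. Between the combination and UNC0638 3 of 10 differed, against 13.0% of probes. CD70 was higher by 0.75 (adjusted p = 0.0158), TNFRSF13B was lower by 0.73 (adjusted p = 0.0267) and SLAMF7 was lower by 0.43 (adjusted p = 0.0329). For ICAM1 the combination and UNC0638 differed by 0.16 (95% interval -0.20 to 0.53), and for CD38 by 0.09 (-0.25 to 0.43), neither of which was called. The call of SLAMF7 against UNC0638 was lost when any 1 of the 8 arrays was left out (-0.47 to -0.39), that of CD70 without either UNC0638 array or combination replicate 2 (0.67 to 0.82), and that of TNFRSF13B without any array but DMSO replicate 1 and combination replicate 1 (-0.84 to -0.60). Against GSK126, the call of CD38 was lost without replicate 1 of GSK126 or of the combination (-0.50 to -0.45) and that of CD40 without combination replicate 2 (1.53, adjusted p = 0.0528).

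**Figure D3:**
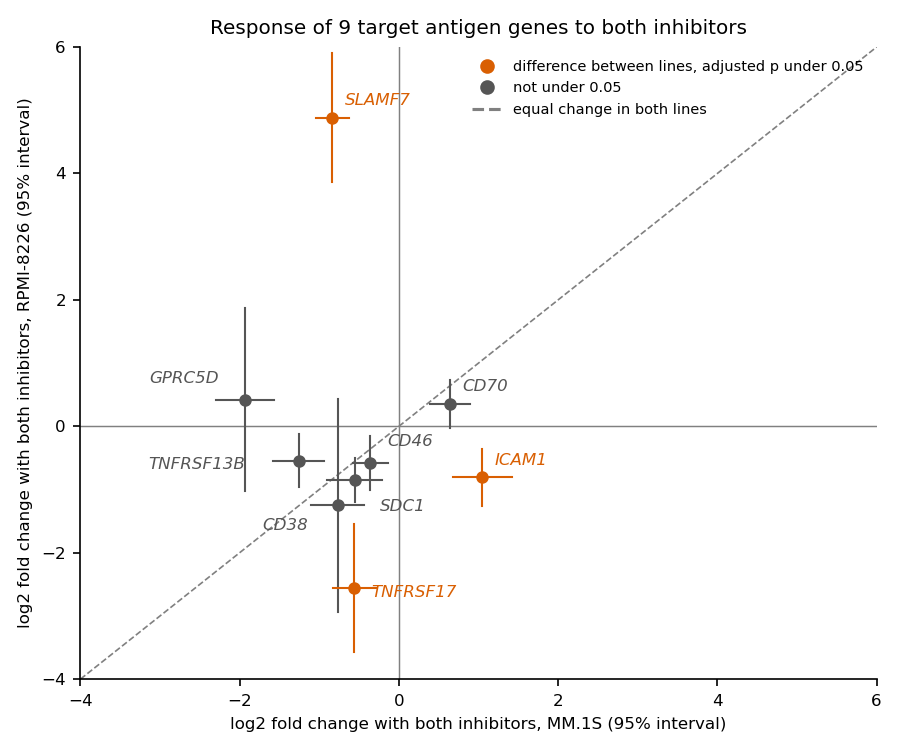
The log2 fold change with both inhibitors is plotted for MM.1S (horizontal axis) and RPMI-8226 (vertical axis) for the 9 members measured in both lines, with 95% intervals and a dashed line of equal change. SLAMF7 (4.88 in RPMI-8226, -0.84 in MM.1S), ICAM1 (-0.80, 1.05) and TNFRSF17 (-2.56, -0.56) are the genes whose responses differed between the lines without the replicate block. With the block, applied to the arrays of both lines, GPRC5D and TNFRSF13B were called too.

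Whether a line changed a response was tested on the difference between the responses, over all 16 arrays, for the 9 members measured in both lines. With the combination 3 of 9 differed, against 13.1% of the 26925 probes tested. The SLAMF7 response was higher in RPMI-8226 by 5.72 (95% interval 4.65 to 6.79, adjusted p = 8.16e-05), and the responses of ICAM1 and TNFRSF17 were lower there, by -1.85 (-2.40 to -1.30, adjusted p = 0.00132) and -2.00 (-3.08 to -0.92, adjusted p = 0.0243). With UNC0638 2 of 9 differed, against 2.85% of probes, SLAMF7 by 3.42 (adjusted p = 0.00650) and ICAM1 by -1.56 (adjusted p = 0.0111). With GSK126 0 of 9 differed, against 0.776% of probes, and by unadjusted p SLAMF7 (1.32) and TNFRSF13B (0.63) were under 0.05. The GPRC5D responses were 2.21 apart with UNC0638 (adjusted p = 0.129) and 2.35 apart with the combination (0.80 to 3.91, adjusted p = 0.0523). With the replicate block 8 such differences were called in place of 5, the additions being GPRC5D with UNC0638 (adjusted p = 0.00155) and with the combination (adjusted p = 0.000306), and TNFRSF13B with the combination (0.72, adjusted p = 0.0465). This fit blocked the arrays of both lines by number, although the MM.1S numbers were not taken to pair those samples. Over all probes the block gave 2690 higher and 2389 lower responses in RPMI-8226 with the combination, in place of 1884 and 1636. With UNC0638 it gave 630 and 852, in place of 275 and 492. The TNFRSF17 difference was lost when any of 5 arrays was left out, RPMI-8226 DMSO replicate 2 or any DMSO or combination array of MM.1S (-2.05 to -1.99, highest adjusted p = 0.0743).

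Without inhibitors the lines themselves differed at most of these genes. Between the DMSO arrays 9 of 10 members were called, against 57.7% of probes, and the part of line, slide and scan in that share cannot be told apart. SLAMF7 was 430-fold lower in RPMI-8226 than in MM.1S (log2 difference -8.75, 95% interval -9.50 to -7.99). GPRC5D was 61.8-fold lower, TNFRSF17 5.94-fold lower, TNFRSF13B 2.91-fold lower and SDC1 2.12-fold lower in RPMI-8226. SLAMF7 and GPRC5D were dim in RPMI-8226, and the size of their differences depended on the processing and on the arrays used. Over the alternatives run the log2 difference was -9.30 to -7.67 for SLAMF7 and -6.50 to -4.72 for GPRC5D. With 1 array left out it was -9.30 to -8.20 for SLAMF7 and -6.50 to -5.40 for GPRC5D. CD40 was at least 1.73-fold lower there, since it was not well above background, and with normexp correction its difference of -0.26 was not called. ICAM1 was 28.7-fold higher in RPMI-8226, CD38 4.29-fold higher and CD70 1.97-fold higher. The CD38 difference was lost without RPMI-8226 DMSO replicate 2 (1.57, adjusted p = 0.0770). CD46 differed by 0.07 (-0.24 to 0.39, adjusted p = 0.682). With the combination SLAMF7 stood at 2.83 and 1.86 in RPMI-8226, still below the 5.35 and 5.40 of the treated MM.1S cells.

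Other genes of the members' families were counted by list for the combination. Over all genes tested 8.06% rose and 5.03% fell in RPMI-8226, and 23.2% rose and 32.0% fell in MM.1S. Of 10 SLAM family receptor and adaptor genes other than SLAMF7, 3 were well above background with DMSO in RPMI-8226 (CD48, LY9 and SLAMF9) and 4 in MM.1S, and 0 of these were called (median changes -0.13 and -0.33). The calls were in genes that entered the test through treated arrays alone. In RPMI-8226 SH2D1B, which encodes the adaptor EAT-2 that binds SLAM family tails, was at least 6.88-fold higher, CD84 at least 3.14-fold, SLAMF1 at least 2.93-fold and SLAMF8 at least 2.24-fold, and none was well above background on a DMSO array. In MM.1S SH2D1B, again dim with DMSO, was at least 1.44-fold higher. CD48, another SLAM family member, changed by 0.58 in RPMI-8226 (adjusted p = 0.271) and by -0.38 in MM.1S (adjusted p = 0.299). The median over all genes tested, including those dim with DMSO, was -0.12 in RPMI-8226 and -0.11 in MM.1S.

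Of 5 complement regulators other than CD46, 3 were well above background with DMSO in RPMI-8226, of which 0 were called (median change 0.64), and 3 in MM.1S, of which 1 rose (0.06). CFI (factor I), not well above background with DMSO, was at least 8.68-fold higher in RPMI-8226. CD59 rose by 0.63 in MM.1S (adjusted p = 0.00340) and changed by 0.64 in RPMI-8226 (adjusted p = 0.122). CD55 changed by -0.30 (adjusted p = 0.474) and -0.03 (adjusted p = 0.862). Among 12 genes of syndecans and heparan sulfate enzymes, 7 were well above background with DMSO in RPMI-8226, of which 0 rose and 1 fell (median change 0.00), and 10 in MM.1S, of which 4 rose and 1 fell (0.18). HPSE, the heparanase that trims syndecan chains, fell by 1.65 in RPMI-8226 (adjusted p = 0.0206), and EXT1, which extends those chains and was well above background on 1 of the 2 DMSO arrays, rose by 1.40. In MM.1S SDCBP (syntenin), which binds syndecan tails, rose by 1.14 and HS6ST1 fell by 0.96. Of 7 ectoenzymes and adenosine receptors related to CD38, 2 were well above background with DMSO in RPMI-8226, of which 0 were called (median change -0.51), and 5 in MM.1S, of which 2 rose and 2 fell (0.46). NT5E (CD73), which makes adenosine, was not well above background with DMSO in RPMI-8226 and was at least 2.52-fold higher there, and it rose by 1.99 in MM.1S (adjusted p = 0.000142). In MM.1S ENPP1 rose by 1.03, ADORA2A fell by 0.72 and ENTPD1 (CD39) fell by 0.46.

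Of 19 other antigens proposed for myeloma or B cell tumours, 12 were well above background with DMSO in RPMI-8226, of which 0 were called (median change -0.01), and 14 in MM.1S, of which 3 rose and 2 fell (0.24). In MM.1S 23.2% of all genes tested rose and 32.0% fell. FCRL5, an Fc receptor-like protein of B and plasma cells, rose 52.6-fold in MM.1S. Its log2 level there was -3.53 and -3.68 with DMSO and 1.85 and 2.38 with the combination, a change of 5.72 with an adjusted p of 9.28e-05. In RPMI-8226 FCRL5 was at -4.09 and -4.85 with DMSO and at -4.23 and -3.28 with the combination, groups that overlapped (adjusted p = 0.251). MS4A1 (CD20) was not well above background with DMSO in either line and was at least 17.1-fold higher with the combination in RPMI-8226 and at least 2.75-fold higher in MM.1S. CD44 in RPMI-8226 was at -3.92 and -6.34 with DMSO, the lower of which was not well above background, and at -0.09 and -1.95 with the combination. In MM.1S CCR10, a chemokine receptor of plasma cells, fell by 1.25 (adjusted p = 0.00285).

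Marker genes of other cell types moved in the same arrays. In RPMI-8226 2 of the 3 T cell markers well above background with DMSO rose with the combination and 1 fell. CD3G rose by 5.77 (adjusted p = 0.000400), CD3D rose by 4.98 (adjusted p = 0.000455), and CD3E, which was not well above background with DMSO, was at least 6.72-fold higher, while CD8A fell by 0.75. Summed over the 4 genes, the T cell level was 0.581 to 0.720 times the 75th percentile with DMSO, 1.07 to 1.72 with GSK126, 3.71 to 4.57 with UNC0638 and 11.8 to 13.7 with the combination, the same order of groups as for SLAMF7. In MM.1S 0 of 2 such markers rose and 1 fell, CD3E, not well above background with DMSO, was at least 4.67-fold higher, and the sums ran from 0.349 to 0.395 with DMSO and from 0.493 to 0.519 with the combination.

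The other marker lists were mixed. Among markers well above background with DMSO in RPMI-8226, 1 of 2 B cell markers (BACH2) and 1 of 2 myeloid markers (CD14) rose with the combination, 0 of 1 NK marker was called, and 1 of 2 stromal or epithelial markers (EPCAM) fell. MS4A1, NKG7, ITGAM, HBB and COL1A2 were not well above background with DMSO there, were so on both combination arrays, and were higher. They entered the test through treated arrays alone. PAX5 and CD22 of the B cells, KLRD1 of the NK cells and MPO of the myeloid cells were not well above background in either line with DMSO or the combination. Summed levels in RPMI-8226 went from 0.207 to 0.316 with DMSO to 1.12 to 1.56 with the combination for the B cell list, from 8.63 to 10.65 to 7.19 to 9.02 for the NK list, from 0.565 to 0.971 to 4.47 to 5.26 for the myeloid list, from 0.0107 to 0.0132 to 0.202 to 0.685 for the erythroid marker and from 31.3 to 41.3 to 15.7 to 18.6 for the stromal or epithelial list.
Among those well above background with DMSO in MM.1S, 1 of 2 B cell markers, 0 of 1 NK marker, 1 of 2 myeloid markers, the 1 erythroid marker measured (HBB) and 0 of 2 stromal or epithelial markers rose, and EPCAM and KRT8 (epithelial) fell. Their sums with DMSO and with the combination were 1.87 to 2.03 and 1.77 to 2.11 (B cell), 0.781 to 0.894 and 0.862 to 1.23 (NK), 0.198 to 0.204 and 0.656 to 0.817 (myeloid), 10.1 to 10.6 and 19.5 to 19.9 (erythroid), and 0.596 to 0.639 and 0.278 to 0.367 (stromal or epithelial). Among the plasma cell markers 0 rose in either line. In RPMI-8226 1 of 6 fell, against 5.03% of all genes tested, namely IRF4 by 1.72 (adjusted p = 0.00303). In MM.1S 5 of 6 fell, against 32.0% of all genes tested, among them IRF4 by 1.18, PRDM1 by 0.71 and MZB1 by 0.59. The summed plasma cell level went from 266 to 330 with DMSO to 192 to 243 with the combination in RPMI-8226, and from 448 to 462 to 319 to 331 in MM.1S. The part of any of these markers in the changes of the antigen genes was not tested.

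**Figure D4:**
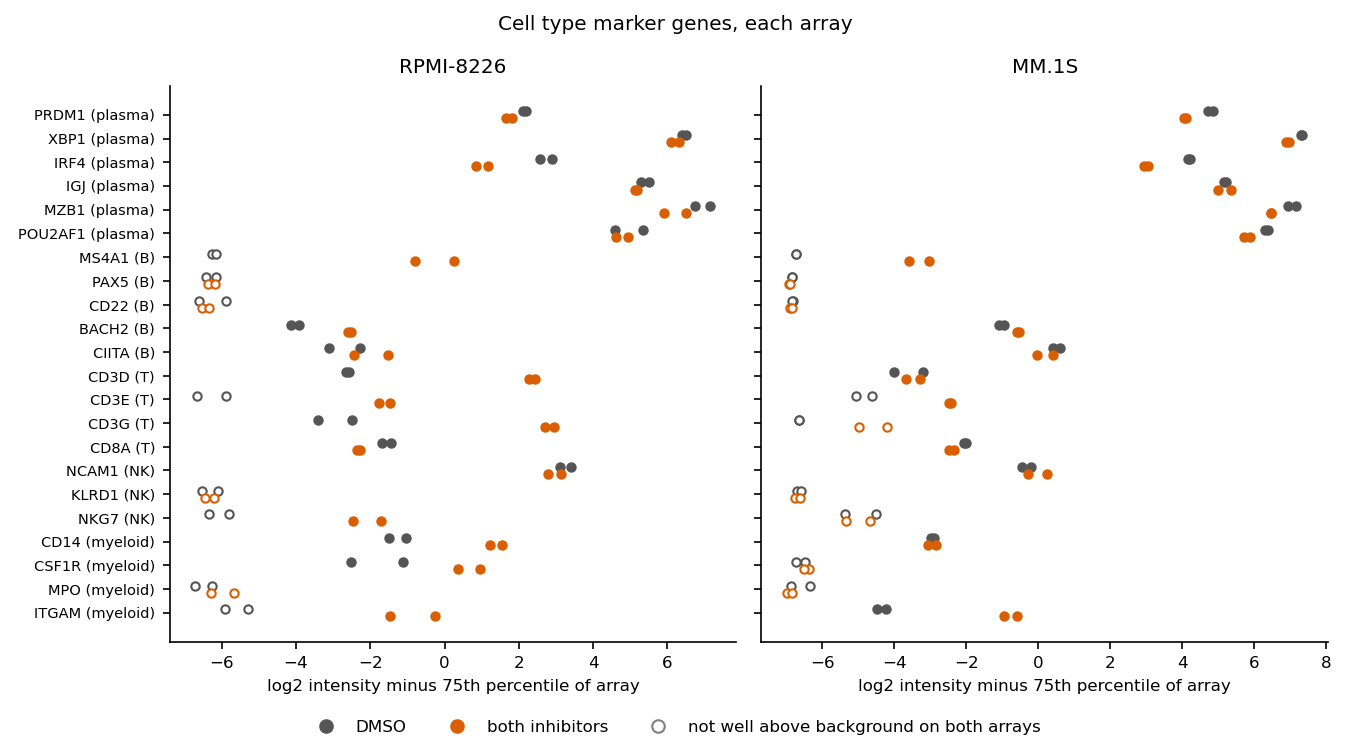
For each marker gene (rows, with its cell type in brackets) the points are single arrays, as log2 intensity relative to the array's 75th percentile, given DMSO (grey) or both inhibitors (orange), in RPMI-8226 (left) and MM.1S (right), and open points were not well above background on both arrays of the group. Points should be compared within a row: CD3D and CD3G are apart by 4.98 and 5.77 between the groups in RPMI-8226, and IRF4 is lower with both inhibitors in each line, by 1.72 and 1.18.

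For each member that was called against DMSO and measured in both lines, the genes with the closest set of 6 log2 changes (3 treatments in 2 lines) were sought among 14822 genes, by the root mean square difference. The 6 changes share their DMSO arrays within a line, so the likeness is a description. The nearest to SLAMF7 were LOC100505495 (0.478) and RIMKLA (0.616), and LOC100505495 changed by 4.35 with the combination in RPMI-8226 and by -0.08 in MM.1S. The nearest to TNFRSF17 were XLOC_001713 (0.426) and CDK5R1 (0.443), and to GPRC5D they were KCNE1L (0.367) and ANKRD37 (0.367). ICAM1 was closest to NUDT14 (0.159) and XLOC_l2_006994 (0.205), and TNFRSF13B to XLOC_013220 (0.105) and XLOC_007895 (0.114). CD38 was closest to SCARNA1 (0.127) and ZNF701 (0.147). The genes with smaller changes had nearer neighbours, SDC1 with RBBP5 (0.0609) and XLOC_009152 (0.0645), CD46 with LOC100289038 (0.0518) and YIPF6 (0.0578), and CD70 with XLOC_l2_005020 (0.0639) and GOLGA6L10 (0.0862).

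Promoter sequence (RefSeq, GRCh38.p14, 250 bases before to 50 after the start) was matched for 6 of the 10 members, CD46, SDC1, CD38, GPRC5D, TNFRSF13B and ICAM1. Of 5 motifs searched on both strands, 1 form of the interferon-stimulated response element core (TTTC, any 2 bases, TTTC), 1 form of the NF-kappaB motif (GGG, any 2 bases, TTTCC) and the E-box CACGTG had no match in the 6 windows, and were in 3.57%, 1.91% and 7.26% of all 35116 promoters. Other forms of these motifs were not searched. The GAS motif TTCNNNGAA was in the ICAM1 window, 75 to 67 bases before the start, and in 7.66% of all promoters. The ETS-IRF composite (GGAA, any 2 bases, GAAA) was in the CD38 window, 43 to 34 bases before the start, and in 2.82% of all promoters. These windows are printed because they held the matches. Both genes changed with UNC0638 in MM.1S, in opposite directions. GPRC5D and TNFRSF13B, whose windows held no match, also fell with UNC0638 there. The windows printed are the 250 bases before the start at chr19:10270870-10271119 (plus strand) for ICAM1 and chr4:15778078-15778327 (plus strand) for CD38, with the motif match in capitals.
ICAM1: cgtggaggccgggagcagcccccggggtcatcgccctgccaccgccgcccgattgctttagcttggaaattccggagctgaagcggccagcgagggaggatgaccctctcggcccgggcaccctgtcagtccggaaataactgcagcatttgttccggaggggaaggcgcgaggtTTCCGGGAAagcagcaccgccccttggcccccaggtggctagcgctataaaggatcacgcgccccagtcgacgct
CD38: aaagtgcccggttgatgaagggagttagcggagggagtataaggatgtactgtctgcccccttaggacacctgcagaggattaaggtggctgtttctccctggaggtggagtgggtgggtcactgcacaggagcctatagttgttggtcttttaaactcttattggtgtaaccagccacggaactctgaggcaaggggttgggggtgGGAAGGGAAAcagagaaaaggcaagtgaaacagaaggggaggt
The 300-base windows fell into CpG-rich ones, with 27 and 23 CpG at the SDC1 starts, 25 at both CD46 starts and 24 at ICAM1, and CpG-poor ones, with 5 at TNFRSF13B and 4 each at GPRC5D and CD38, against a median of 14 over all promoters. A match is a description of letters, and binding of a factor was not measured on these arrays.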

How the data were processed

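From each RNA sample the authors made a labelled target for 1 array, and deposited the scanner output, whose background-subtracted spot intensity is linear (Agilent Feature Extraction 10.7, per the submitters' processing notes). No scaling between arrays had been applied, and the deposited table of the whole series held the same intensities for 99.9958% of 1007616 values. The methods name Gene Spring GX for the arrays, with no normalization or test given in the sources used here. Control spots and outlier spots were left out, log2 intensities minus the 75th percentile of the array were averaged over the spots of a probe, and a probe was kept for a line if both arrays of some group there had it well above background. limma (version 3.58.1, R 4.3.3; lmFit, eBayes, Benjamini-Hochberg, threshold 0.05) was fitted over the 8 arrays of a line, and over all 16 arrays for differences between lines. The fits were tested on simulated data. A change from or to a group whose arrays both lacked signal well above background is given as a lower bound, against the lowest signal well above background on those arrays.

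The 2 arrays per group and the signal over background limit the precision. In RPMI-8226 same-numbered arrays deviated together in 6 of 6 pairs of groups (r between 0.254 and 0.415 over 23193 probes), so the numbers from the labels were taken to pair the samples, and blocked values are given where they change a call. The members and gene lists were chosen with earlier results of these data known. Named genes are the 10 members and, per list, up to 4 genes called with the combination in either line, largest changes first, plus FCRL5, TNFSF13, TNFSF13B, TNFRSF13C, CD48, CD55, CD59, ITGAL, ITGB2 and CD27. Alternatives were quantile normalization, the percentile over probes detected on all arrays, normexp (offset 50), other filters, the series table, an intensity-dependent prior, other sets of arrays in the fit, the replicate block, the mean over probes, and each array left out. A slide block was not run, since each line was on 1 slide. Exon positions of probes were not analysed here. A few genes of the lists are not reported here, and the counts, medians and sums leave them out.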

Additional observations from a re-analysis of the deposited data

Results flagged for a closer look

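The responses of 3 members differed between the cell lines by the test of the difference itself, without pairing of the arrays (limma over all 16 arrays, adjusted over all probes kept). With the replicate number as a block, the differences of GPRC5D with UNC0638 and with the combination were called too. So was that of TNFRSF13B with the combination. That block covered the arrays of both lines, although the MM.1S numbers were not taken to pair those samples. The SLAMF7 response was higher in RPMI-8226 than in MM.1S by 3.418 on the log2 scale with UNC0638 and by 5.717 with the combination. The ICAM1 response was lower in RPMI-8226, by -1.561 with UNC0638 and by -1.851 with the combination, and in each case its changes against DMSO had opposite signs in the 2 lines. The TNFRSF17 response to the combination was lower in RPMI-8226, by -2.004, where both lines had a lower level with the combination. Each line was on a slide of its own, so these differences cannot be told apart from a difference between slides that affects treated and control arrays unequally.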

How the results depend on the processing

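Of 48 called changes of members, 21 were called under every alternative, 149 of 1018 values under an alternative were no longer called, and 0 reversed. With the replicate number as a block, the calls against DMSO in RPMI-8226 went from 5 to 8, those of the combination against a single inhibitor there from 1 to 6, and those of responses that differ between the lines from 5 to 8. Calls over all probes rose under the block too, as given with those results above. The blocked fit over all 16 arrays also blocked MM.1S by number. In MM.1S 5 of 6 pairs of groups had a correlation over 0.1 (0.0847 to 0.225), so the numbers were not taken to pair those samples, and there TNFRSF17 with GSK126 and with UNC0638 lost its call under the block, while CD40 and CD70 with GSK126, CD70 with the combination against GSK126 and CD40 with the combination against UNC0638 gained one. Calls against DMSO in RPMI-8226 (5) numbered 3 with the percentile over probes detected on all arrays, 2 with no filter and 2 when the fit held just the arrays compared, and those of the combination against a single inhibitor (1) numbered 4 with normexp, 4 with an intensity-dependent prior and 8 with 1 fit over all 16 arrays. Over all probes, the RPMI-8226 combination against DMSO had 1242 higher and 376 lower of 50582 with no filter. With just the arrays compared it had 1091 and 357 of 23193, in place of 1650 and 1266. With 1 fit over all 16 arrays, 1205 and 998 were called against GSK126, in place of 465 and 133. Against UNC0638 these were 1418 and 1135, in place of 628 and 156. In MM.1S the calls against DMSO (20) numbered 12 with no filter and 9 with 1 fit over all 16 arrays, and those of the combination against a single inhibitor (8) numbered 4, 4 and 5 with no filter, with just the arrays compared and with 1 fit over all 16 arrays. Over all probes, the MM.1S combination against DMSO had 4633 higher and 6118 lower of 50582 with no filter. With 1 fit it had 4190 and 6471 of 25096, in place of 5565 and 7896. Against GSK126 the 3 settings gave 2576 and 3236, 2983 and 3712, and 2338 and 3965, in place of 3841 and 5406. Against UNC0638 they gave 361 and 141, 21 and 0, and 718 and 702, in place of 1512 and 1760. Responses that differ between the lines numbered 8 with normexp. Over all probes normexp gave 2066 higher and 1979 lower with the combination, in place of 1884 and 1636. The cause of these shifts was not tested. With each array left out in turn, the calls ran from 1 to 4 (against DMSO) and 1 to 2 (against a single inhibitor) in RPMI-8226, from 10 to 18 and 4 to 7 in MM.1S, from 4 to 6 for differing responses and from 8 to 9 between the DMSO arrays. CD40 in RPMI-8226 was limited by signal over background.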
